A study of Mus musculus with 10 samples.

Results

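The enzymes of glycolysis and of glycogen metabolism were followed in the gastrocnemius (GAS) of obese mice treated with an antisense oligonucleotide against miR-22. The set holds 37 genes, chosen by name from the pathway, of the 21160 genes and unassigned features in the deposited table. A total of 27 of them had at least 1 count, and 24 had enough counts to be tested, against 7819 features tested in the whole table. At an adjusted p under 0.05 (edgeR, quasi-likelihood, adjusted by Benjamini-Hochberg), 6 enzymes rose and 5 fell, and 13 did not pass. Over all tested features, 11.7% rose and 17.5% fell. Gpi1, Pgam2, Pkm, Fbp2, Pfkfb3 and Stbd1 rose, while Gys1, Gyg1, Pfkl, Phkb and Ldha fell. For some of them, Gys1 among these, whether a change was called depended on which piece of the transcript had been counted.

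Glycolysis splits glucose into pyruvate in the cytosol, and muscle fibers that contract fast rely on it for ATP. Glycogen is the branched glucose store of the fiber, built by glycogen synthase and broken down by glycogen phosphorylase, which phosphorylase kinase switches on. Several steps exist as isoforms encoded by separate genes, 1 of them typical of muscle and others typical of liver, brain or most cells.

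All animals were wild type (WT) male C57BL/6J mice on a high-fat diet, the diet-induced obesity (DIO) model. Per the labels the diet began at 9 weeks of age and ran for 9 weeks, to a weight over 40 g, before treatment. The study's own weight records list some CTRL mice below that weight at the first injection and no ASO mouse, and the part of starting weight in the results was not tested. The ASO group was injected under the skin with the anti-miR-22 ASO, an oligonucleotide with locked nucleic acid bases, at 10 mg/kg once weekly for 14 weeks, and the CTRL group received the same volume of saline, both while on the diet. The series gives an age of 30 weeks at collection, whereas the stated intervals sum to 32 weeks. Each group has 5 libraries, and no oligonucleotide of unrelated sequence was given to the controls, so the target sequence and the exposure to an oligonucleotide cannot be told apart. The labels do not say more about what separates the replicates than their number, so p-values measure the spread between these libraries.

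The 5 CTRL libraries held 1606909 to 2116720 counts and the 5 ASO libraries 2239186 to 2632560, so every ASO library was deeper than every CTRL library. The counts do not measure mature miR-22, the target, so the library labels could not be checked by it. The host gene of miR-22 is not among the features analysed here. Muscle genes were abundant in all libraries, with a summed level of 44152 to 83449 CPM (counts scaled to a common library size) in CTRL and 88869 to 137033 CPM in ASO over a list of 12, of which 3 (Mb, Tnnt3 and Mylpf) were listed at 0. CTRL replicate 3 had the highest summed level of 9 adipocyte genes, 24683 CPM against at most 12931 CPM in any other library. ASO replicate 4 and CTRL replicate 1 had the highest summed levels of 10 slow fiber genes, 9131 and 3155 CPM.

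The table counts read pairs on pieces of transcript of at most 500 bp, called segments here, and all segments of a gene were summed. By default featureCounts leaves a read pair unassigned where it lies on bases shared by several segments, and the study's methods name no option that changes this. For 10 enzymes this left at most 11 bases of any segment free of overlap, and all 10 libraries were at 0: Aldoa, Eno1, Eno3, Gapdh, Gpd2, Pfkfb1, Pfkm, Pgm1, Phka1 and Pygm. The overlap was with transcripts of the same gene, except that Aldoa also overlapped Gm57854. A listing at 0 therefore says nothing of whether these genes are expressed, and the muscle phosphofructokinase Pfkm and the muscle phosphorylase Pygm are among them. Aldoc, Hk1 and Pgam1 had 27, 20 and 19 counts over the 10 libraries and were not tested.

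miR-22-3p pairs with messenger RNAs through its seed, and the complement of the seed in a 3′UTR is the most common form of target site. The mature sequence is shown from RefSeq (GRCm38.p6) with the seed, bases 2 to 8, in capitals, followed by the stretches (GRCm39, transcript strand) that hold the seed match GGCAGCT, in capitals, within the longest 3′UTR annotated for any transcript of an enzyme. Of these 5 matches, 3 (Phkb, Pfkp and the second of Pfkfb4) lie in the 3′UTR of the gene's main transcript as well. The match of Gys1 lies in an intron of its main transcript, upstream of all its counted segments, and the first of Pfkfb4 in an exon outside the 3′UTR. The match of Phkb lies downstream of all its counted segments.
mmu-miR-22-3p: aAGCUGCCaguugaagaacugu
Gys1, chr7:45101762-45101791: agcacccacatGGCAGCTcataactatgtg
Phkb, chr8:86789186-86789215: tctatttggatGGCAGCTtgaaaggggctc
Pfkp, chr13:6630509-6630538: gatgctcactgGGCAGCTctgctaaactct
Pfkfb4, chr9:108857989-108858011: acgtGGCAGCTgtgaacactcac
Pfkfb4, chr9:108860105-108860134: tgtaaaggcagGGCAGCTttaggaagtacc
When the longest 3′UTR annotated for a gene was searched, 4 of 37 enzymes (10.8%) held the match on the transcript strand, against 16.7% of 20969 genes. Among the tested, 4 of 24 enzymes (16.7%) and 21.7% of 7781 genes held it. The searched 3′UTR had a median length of 1627 bp in the tested enzymes and 2024 bp in the tested genes. None of the 6 enzymes that rose held a match, and 2 of the 5 that fell did, Phkb and, in an alternative transcript only, Gys1. The share with a match among all features that rose or fell was not computed, and so few enzymes give no result about the match. A match is a description of the letters in this window and not a site shown to be used.

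The background of the comparison was high, since 11.7% of all tested features rose and 17.5% fell, 29.2% in all. Against that, 6 of the 24 tested enzymes rose and 5 fell, 45.8% in all. The median log2 fold change (ASO over CTRL) of the 24 was -0.31, against -0.03 over all tested features, and the single values ran from -4.07 to 1.75. The ASO and CTRL values did not overlap for 2 enzymes that were higher and 3 that were lower, where 7.98% and 13.4% of all tested features stood apart in these directions, 21.4% in all. With total counts in place of the TMM scaling, which lowers the median of all features from -0.03 to -0.21, 4 enzymes rose and 7 fell. The share of a library on the enzymes was 2.52% ± 0.243 (SD, n = 5) in CTRL and 2.23% ± 0.262 in ASO, and these ranges overlapped.

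**Figure D1:**
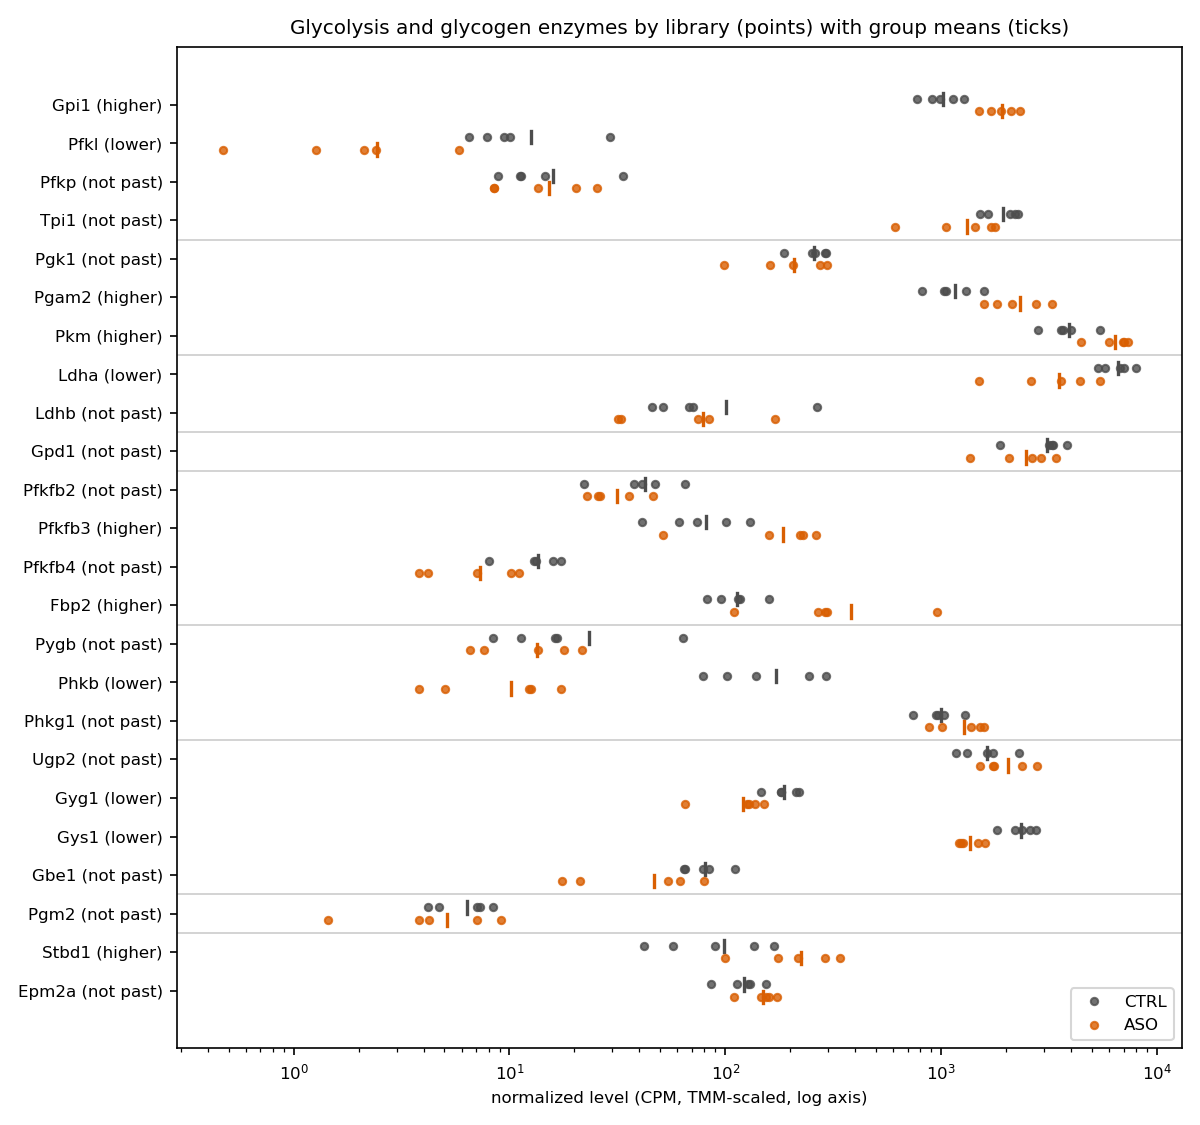
Normalized level (CPM, TMM-scaled, log axis) of the 24 tested enzymes in each of 5 CTRL and 5 ASO libraries, with a tick at each group mean; lines separate the roles. Gpi1 and Pgam2 lie higher in ASO, and Pfkl, Phkb and Gys1 lower, without overlap between the groups.

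**Figure D2:**
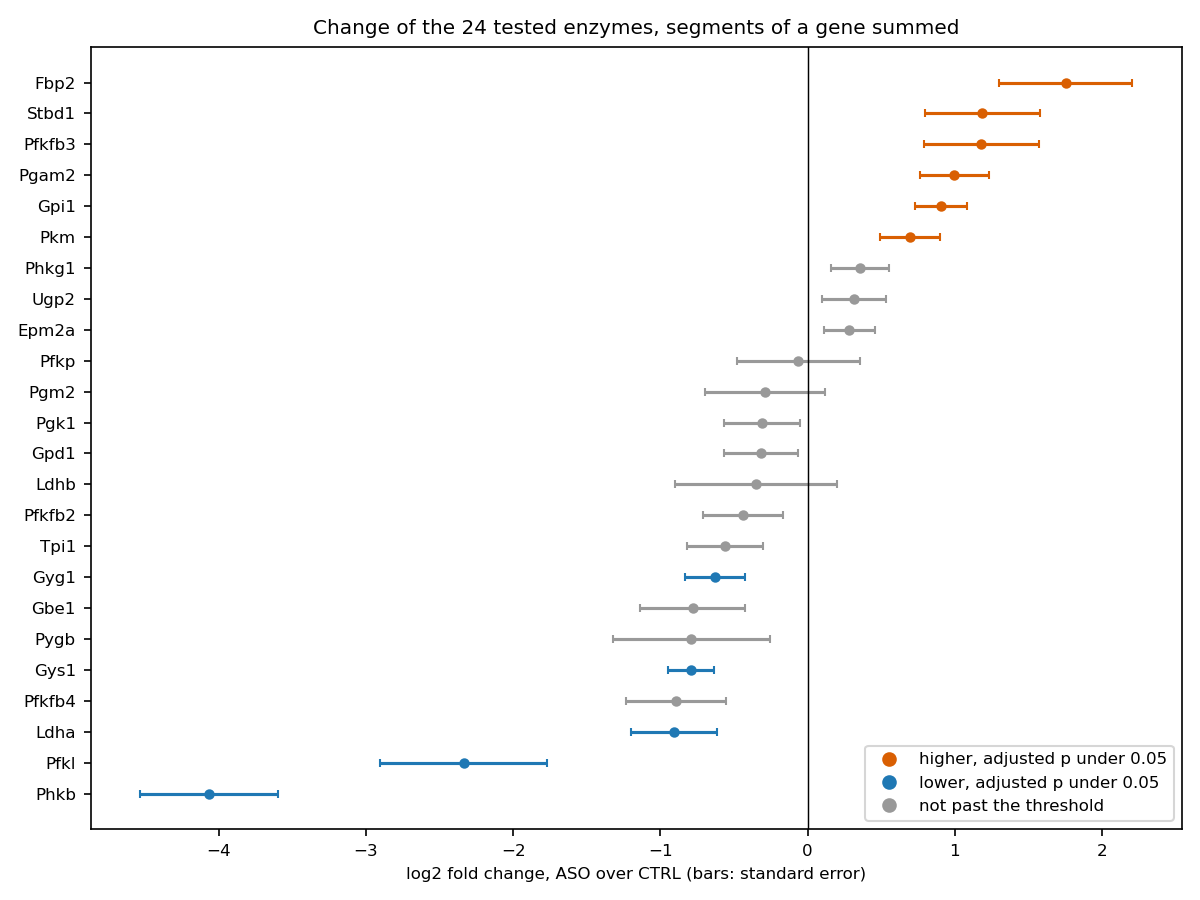
Log2 fold change (ASO over CTRL) of each tested enzyme with its standard error, colored by the call at an adjusted p of 0.05. The values run from -4.07 for Phkb to 1.75 for Fbp2.

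Among the enzymes that phosphorylate and split hexose, 1 of 4 tested rose and 1 fell, where 11.7% of all tested features rose and 17.5% fell. Gpi1, which turns glucose 6-phosphate into fructose 6-phosphate, was at 1133, 1278, 773, 910 and 981 CPM in CTRL and at 1888, 1697, 2105, 1495 and 2323 CPM in ASO. Every ASO library lay above every CTRL library, and the log2 fold change was 0.91 ± 0.18 (SE), with an adjusted p of 0.0027. Its counts came to 85.3% from a segment lying 876 bp before the gene's most distal end, made of coding, 3′UTR and intron bases of the main transcript, and near-identical copies of the counted segments lie elsewhere in the genome, so its level is uncertain.

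Pfkl, the liver-type phosphofructokinase, was at 9.43, 6.53, 29.1, 10.0 and 7.86 CPM in CTRL and at 2.41, 2.12, 1.27, 5.84 and 0.472 CPM in ASO. The groups did not overlap, and the log2 fold change was -2.34 ± 0.57 (adjusted p = 0.0090). These levels rest on 1 to 59 counts per library, and 73.0% of them fell on a segment lying 12946 bp before the most distal one, with 413 of its 500 bases intronic. CTRL replicate 3, the library with the highest adipocyte and macrophage markers, was also the highest in Pfkl. Without it the log2 fold change was -1.76 (adjusted p = 0.018). ASO replicates 3 and 4 were next in adipocyte markers, at 12931 and 11881 CPM, and had Pfkl at 1.27 and 5.84 CPM. In a bulk library fewer cells of a type and less RNA per cell cannot be told apart, and the part of either in Pfkl was not tested. Without CTRL replicate 3 and ASO replicate 4 together, 6 enzymes rose and 5 fell.

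Pfkp, the platelet-type phosphofructokinase, had a log2 fold change of -0.06 ± 0.42. Its CTRL values ran from 8.86 to 33.6 CPM and its ASO values from 8.46 to 25.5, and leaving out CTRL replicate 3 turned the estimate to 0.41. Tpi1, which interconverts the triose phosphates, gave -0.56 ± 0.26 (adjusted p = 0.12). Of its counts, 93.3% came from a segment of 10 bases, and near-identical copies of the sequence around it lie elsewhere.

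From triose phosphate to pyruvate, 2 of 3 tested enzymes rose, where 11.7% of all tested features rose. Pgam2, the muscle phosphoglycerate mutase, was at 1297, 1573, 814, 1027 and 1055 CPM in CTRL and at 2122, 1809, 3264, 1574 and 2744 CPM in ASO. The lowest ASO library was just above the highest CTRL library. Its log2 fold change was 1.00 ± 0.23 and its adjusted p 0.0074, all from a single segment of 33 bases in the 3′UTR.

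Pkm, pyruvate kinase, was at 3991, 5452, 2802, 3600 and 3677 CPM in CTRL and at 7340, 5971, 7021, 4451 and 6921 CPM in ASO. Only ASO replicate 4 lay within the range of the controls, and the log2 fold change was 0.70 ± 0.20, with an adjusted p of 0.022, which became 0.057 without CTRL replicate 4 and 0.054 without CTRL replicate 5. Pgk1, phosphoglycerate kinase, gave -0.31 ± 0.26 with overlapping groups, and near-identical copies of its segment lie elsewhere.

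Lactate dehydrogenase is built from A subunits (Ldha), which prevail in fast muscle, and B subunits (Ldhb), which prevail in slow muscle and heart. Ldha was at 5753, 8003, 5341, 6729 and 6990 CPM in CTRL and at 5437, 4379, 1496, 2595 and 3579 CPM in ASO. Only ASO replicate 1 reached the range of the controls, and the log2 fold change was -0.91 ± 0.29, with an adjusted p of 0.033. The adjusted p was 0.065 to 0.076 when CTRL replicate 2, 4 or 5 was left out, or ASO replicate 4 or 5. No count of Ldha came from its most distal segments. A segment of 43 coding bases lying 3656 bp further upstream held 38.9%, and near-identical copies of the sequence around it lie elsewhere. The other 61.1% lay on a segment that reaches into an intron.

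Ldhb was at 265, 51.3, 45.9, 70.8 and 67.9 CPM in CTRL and at 32.8, 31.9, 74.4, 169.9 and 83.9 CPM in ASO. The highest values were those of CTRL replicate 1 and ASO replicate 4, the libraries with the highest slow fiber markers. Its log2 fold change was -0.35 ± 0.55, and without CTRL replicate 1 it was 0.42. The counted segment of Ldhb has 50 bases free of overlap and a near-identical copy elsewhere, so its level is uncertain. Within a library, the log2 ratio of Ldha over Ldhb was 6.36 ± 1.11 (SD, n = 5) in CTRL and 5.62 ± 1.56 in ASO, a difference of -0.74 (two-sided exact permutation test, p = 0.437). The other 7 ratios of muscle to non-muscle isoforms or of opposing enzymes could not be formed, because a gene in each had no or few counts.

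**Figure D3:**
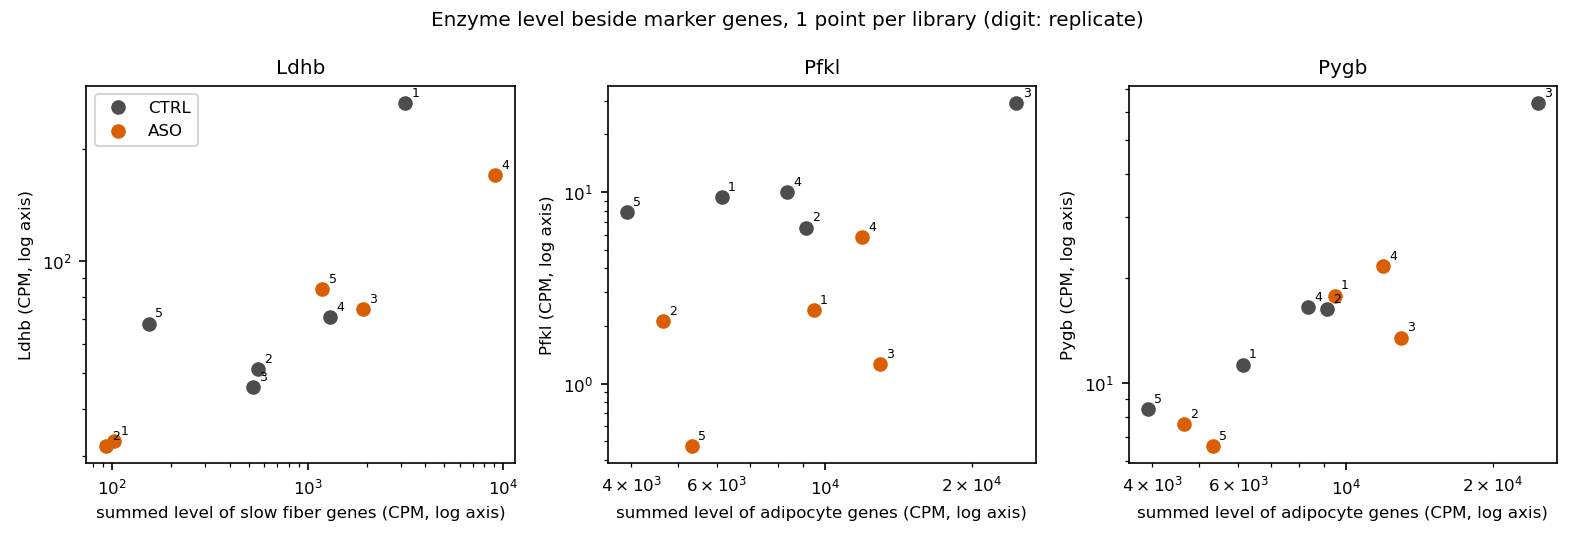
Level of Ldhb, Pfkl and Pygb (CPM, log axis) in each library against the summed level of slow fiber or adipocyte genes (CPM, log axis), with the replicate number beside each point. CTRL replicate 3 is highest in Pfkl, Pygb and the adipocyte genes, and CTRL replicate 1 and ASO replicate 4 are highest in Ldhb and the slow fiber genes.

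The switch between fructose 6-phosphate and fructose bisphosphates is set by the Pfkfb enzymes, which make and remove the activator fructose 2,6-bisphosphate, and by fructose bisphosphatase. Of 4 tested members, 2 rose, where 11.7% of all tested features rose. Pfkfb3, an isoform that mainly acts as the kinase, was at 74.0, 129.6, 60.8, 41.3 and 100.5 CPM in CTRL and at 264, 221, 159.8, 51.3 and 228 CPM in ASO. ASO replicate 4 lay among the controls and the other ASO libraries above them. The log2 fold change was 1.18 ± 0.39, with an adjusted p of 0.038, and this passed only without CTRL replicate 2 or ASO replicate 4 when 1 library was left out, with 0.054 to 0.090 otherwise.

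Fbp2, the muscle fructose bisphosphatase, was at 114, 159.9, 82.0, 117 and 95.4 CPM in CTRL and at 290.2, 295, 954, 110.2 and 268 CPM in ASO. Its log2 fold change was 1.75 ± 0.45 and its adjusted p 0.012. ASO replicate 3 was far above the others and ASO replicate 4 within the controls, and without ASO replicate 3 the log2 fold change was 1.12 (adjusted p = 0.017). Pfkfb2 gave -0.44 ± 0.27 and Pfkfb4 -0.89 ± 0.34 (adjusted p = 0.064), all of the latter from a segment with 489 of 500 bases intronic.

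On the side of glycogen breakdown, 1 of 3 tested enzymes fell, where 17.5% of all tested features fell. Phkb, a regulatory subunit of phosphorylase kinase, was at 78.8, 102, 139, 244 and 294 CPM in CTRL and at 12.6, 17.4, 3.81, 5.01 and 12.3 CPM in ASO. The groups were far apart, by -4.07 ± 0.47 on the log2 scale (adjusted p = 1.6e-04). Most counts (75.4%) lay on a segment in the gene body, 181564 bp before the distal one, with 400 of its 500 bases intronic. Phkg1, the catalytic subunit in muscle, had a log2 fold change of 0.36 ± 0.20. Its segment overlaps Sumf2 in part and holds a repeat, so its level is uncertain. Pygb, the brain-type phosphorylase, had a log2 fold change of -0.79 ± 0.53, and 0.03 without CTRL replicate 3.

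Of the 4 enzymes of glycogen synthesis, 2 fell and none rose, where 17.5% of all tested features fell and 11.7% rose. So few enzymes give no result about the role. Gys1, the muscle glycogen synthase, was at 2573, 2204, 1803, 2742 and 2368 CPM in CTRL and at 1208, 1475, 1258, 1587 and 1230 CPM in ASO. Every ASO library was below every CTRL library, and the log2 fold change was -0.79 ± 0.15, with an adjusted p of 0.0028. Its most distal segment, fitted on its own, gave 0.11 ± 0.17.

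Gyg1, glycogenin, which primes a new glycogen particle, was at 180.1, 180.5, 146, 219 and 212 CPM in CTRL and at 126, 150.4, 65.1, 137 and 129 CPM in ASO. The highest ASO library exceeded the lowest CTRL library, and the log2 fold change was -0.63 ± 0.21, with an adjusted p of 0.037. It passed without CTRL replicate 3, ASO replicate 2 or ASO replicate 3, and had 0.053 to 0.089 without any 1 of the others. Its counted segment has a near-identical copy elsewhere. The branching enzyme Gbe1 gave -0.78 ± 0.36 (adjusted p = 0.12), and Ugp2, which makes UDP-glucose, gave 0.32 ± 0.22.

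Stbd1, which tethers glycogen to membranes, was at 89.1, 167, 42.0, 57.2 and 135 CPM in CTRL and at 217, 289.7, 339, 99.8 and 174 CPM in ASO. The groups overlapped through ASO replicate 4, and the log2 fold change was 1.19 ± 0.39, with an adjusted p of 0.037. The adjusted p was 0.0515 to 0.090 when CTRL replicate 1, 3 or 4 was left out, or ASO replicate 1, 2 or 3. Epm2a, laforin, which removes phosphate from glycogen, gave 0.28 ± 0.17, with near-identical copies of its segment elsewhere. Pgm2, of the phosphoglucomutase family, gave -0.29 ± 0.41, and Gpd1, which makes glycerol 3-phosphate, gave -0.32 ± 0.25, none of the 3 past the threshold.

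Each segment was then fitted on its own, a step chosen after seeing the data. Of 10658 segments tested in the table, 15.9% were higher and 24.7% lower in ASO. The enzymes had 38 tested segments in 23 genes, of which 7 were higher and 9 lower. Among the 15 most distal segments, 6 were higher and 1 lower, where 25.2% of 5060 such segments in the table were higher and 4.37% lower. Among the 23 upstream segments, 1 was higher and 8 lower, where 7.62% of 5592 were higher and 43% lower. A split in the same direction ran through the whole table.

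Gys1, the glycogen synthase, had 3 tested segments. Its segment 1280 bp upstream of the most distal end (chr7:45104393-45104763, GRCm39, plus strand, 299 coding and 72 intron bases) was at 629.5, 536, 595, 888 and 794 CPM in CTRL and at 133, 199.6, 68.0, 153 and 94.2 CPM in ASO. Its most distal segment (chr7:45105544-45106043, in the 3′UTR) was at 1229, 1094, 717, 1096 and 903 CPM in CTRL and at 907, 1058, 1157, 1271 and 1028 CPM in ASO. The upstream values were all lower in ASO, while the distal values overlapped. The log2 fold changes were -2.41 ± 0.27 at this upstream segment, -1.90 ± 0.23 at a 3′UTR segment 772 bp upstream, and 0.11 ± 0.17 at the distal end, so the fall of the summed gene lay in the upstream segments. With the distal segments of all genes fitted alone and scaled among themselves, the value of Gys1 was -0.22 (adjusted p = 0.343).

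Gpd1 followed the same order, with -1.49 ± 0.32 at a 3′UTR segment 1213 bp upstream and 0.45 ± 0.23 at the distal end. The rise of Stbd1 was at its distal segment, 2.04 ± 0.43, with 0.13 ± 0.39 at the segment 285 bp upstream. For Pkm the distal segment, with 90.6% of the counts, gave 0.85 ± 0.21 and the segment 186 bp upstream -0.18 ± 0.20, while among distal segments alone Pkm had 0.52 (adjusted p = 0.094). Pfkfb3 was higher at the distal segment, 1.68 ± 0.38, and gave 1.00 ± 0.40 at the segment 2974 bp upstream. Phkb was lower at both, with -4.95 ± 0.46 upstream and -2.74 ± 0.42 at the distal segment. That segment ends 2884 bp before the end of the main transcript, so the 3′ end annotated for the main transcript was not counted. Which end is used in these muscles was not tested. Gpi1 was higher at its distal segment, 0.92 ± 0.20, and at the segment with most counts, 1.04 ± 0.19. It gave 0.28 ± 0.16 and 0.37 ± 0.17 at the segments 1053 and 1359 bp upstream, neither past the threshold. The distal segment held only 2.9% of the counts of Gpi1, and near-identical copies of it lie elsewhere.

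**Figure D4:**
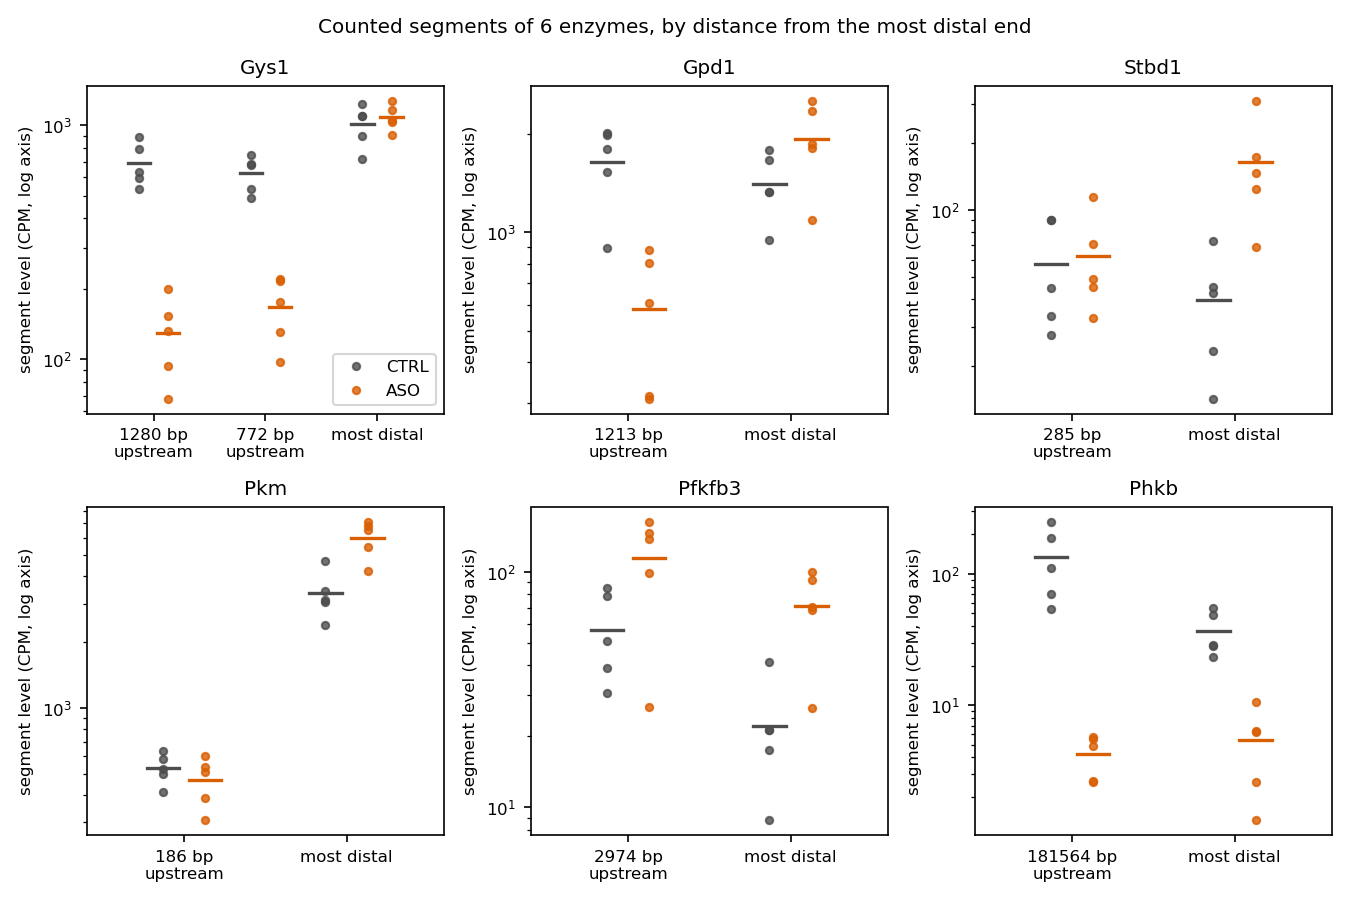
Level of the counted segments (CPM, log axis) of 6 enzymes in each library, with group means as bars, from the segment farthest upstream on the left to the most distal on the right. In Gys1 and Gpd1 the upstream segments are lower in ASO and the distal ones overlap, while Phkb is lower in ASO at both.

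The ratio of distal to upstream counts within a gene removes the library size. Of 6 enzymes with at least 50 counts on both sides and 500 bp between them, 3 had ratios higher in ASO without overlap: Gys1 by 2.32, Gpd1 by 2.004 and Phkb by 1.67 on the log2 scale (two-sided exact permutation test, p = 0.0079 each, the smallest that 5 against 5 allows). Over all 1869 genes of this kind, 48.2% stood apart in this direction and 1.28% in the other, with a median difference of 1.21. The enzymes' share is near this background, and the shift was present across the table: the median ratio over these genes was between -0.59 and 0.24 in the CTRL libraries and between 0.95 and 1.44 in the ASO libraries. When a gene was represented by its most distal segment alone, 5 of 15 tested enzymes rose and 1 fell, where 4.54% of 5093 features rose and 6.62% fell. The part of this shift in the changes of the summed genes was not tested.

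The other genes of glucose metabolism, a list of 57 transporters, shuttle, pentose phosphate and glycogen regulators, had 35 tested members. Of these, 4 rose, 6 fell and 25 did not pass, with a median log2 fold change of -0.02. These counts are near the background of 11.7% and 17.5%, so they are no result about this list, and the genes past the threshold are named for their values. Among those that rose, the glucose transporter Slc2a4 had a difference of 0.51 ± 0.15, the lactate exporter Slc16a3 0.73 ± 0.25 and Bpgm 0.91 ± 0.29 on the log2 scale (adjusted p from 0.022 to 0.042). Among those that fell, the phosphatase Tigar had -0.60 ± 0.17, and the phosphatase subunits Ppp1cb and Ppp1r3e -0.51 ± 0.17 and -0.95 ± 0.25. The pentose phosphate epimerase Rpe had -2.31 ± 0.36, and the shuttle genes Got1 and Slc25a12 -0.72 ± 0.21 and -0.50 ± 0.17.

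Markers of other cells and fiber types were read beside the enzymes, against the background of 29.2% called over all features. Of 5 tested fast fiber genes 4 rose, Actn3 by 1.79 ± 0.31 and Mybpc2 by 1.54 ± 0.29, and their summed level was 17444 to 33920 CPM in CTRL and 32746 to 73486 CPM in ASO. Of 8 tested slow fiber genes 1 rose, Myl6b, by 1.72 ± 0.56. Of 7 tested macrophage genes 2 fell, C1qc and Mrc1, with a summed level of 298 to 1871 CPM in CTRL and 81.1 to 634 CPM in ASO. Of 4 tested fibroblast genes 1 fell, Lum, by 1.72 on the log2 scale. None of the 8 tested adipocyte, 4 blood, 6 endothelial or 3 Schwann cell genes passed the threshold. The part of these cells in the enzymes' changes was not tested.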

How the data were processed

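Polyadenylated RNA of GAS was sequenced in 5 CTRL and 5 ASO libraries with a stranded kit. The authors used fastp for trimming and STAR for mapping (GRCm39), then featureCounts with the Gencode M25 annotation over the last part of the 3′UTR, and deposited raw counts of read pairs per transcript segment. No strand or multi-mapping option is stated for featureCounts, so overlapping and duplicated genes are uncertain. Another 4 per-sample columns of the table match no sample and were not used. Of 52423 segments, 52361 were matched to GENCODE M39, and the 62 others held 0.0197% of the counts and stayed as features of their own. Segments were summed per gene and tested with edgeR 4.0.16 in R 4.3.3 (TMM, the filter on low counts by group, quasi-likelihood test, Benjamini-Hochberg adjustment at 0.05). Levels are edgeR's CPM for the TMM-scaled library size. DESeq2 1.42.0, limma 3.58.1 (voom), other scalings and filters, and leaving out each library were alternatives. Ratios had 0.5 added to each count. Copies were sought with BLAST 2.17.0 at 95% identity over at least 60 bp. Short segments were first widened with the genome bases around them, so a copy found for them need not hold the segment itself. Library totals of 1606909 to 2632560 counts limit the precision of low genes.

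All 37 enzymes are accounted for. Values in every library were given for enzymes past the threshold and for Gapdh, Pfkm, Pygm, Gys1, Pkm and Ldha where tested, and up to 6 genes past the threshold by smallest adjusted p from each other list, except 1 that is not reported here. Ldhb, named with every value, was chosen after its values were seen. The enzymes and lists were chosen with earlier results of these data known. On simulated counts for this comparison (7707 genes), 94 of 96 genes changed by 2 on the log2 scale and 53 of 95 changed by 1 were recovered. At each of these sizes 8 calls were false.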

Additional observations from a re-analysis of the deposited data

Results flagged for a closer look

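Among the 48 sets of 5 libraries (24 enzymes in each group), 5 held a library that stood far from the other 4. The cut-off was a gap to the nearest library over 0.71 of the range. Chance gives about 1 in 20 only for independent, normally distributed values. Levels in CPM on a linear scale were used, and all 5 flagged values were on the high side. Some of them share a library, so how unusual they are is not known. Pfkl (29.1 CPM), Pfkp (33.6 CPM) and Pygb (63.7 CPM) were highest in CTRL replicate 3, which also had the highest adipocyte and macrophage markers. Ldhb was at 265 CPM in CTRL replicate 1, against 45.9 to 70.8 CPM in the other controls. Fbp2 was at 954 CPM in ASO replicate 3, against 110.2 to 295 CPM in the other ASO libraries. The cause of these values was not tested.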

How the results depend on the processing

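The 6 enzymes higher and 5 lower in ASO became 6 and 3 with at least 10 counts in every library, and 5 and 1 with only the most distal segment, where the median log2 fold change of the enzymes was 0.12, 231 and 337 features were called in place of 916 and 1365, 1 and 1 other genes of the pathway in place of 4 and 6, and the share of the library differed by 0.25 percentage points in place of -0.29. Total counts gave 528 features higher (22.5% of the calls, against 40.2%; 51.1% with the upper quartile) and 1 other gene of the pathway higher, DESeq2 7 and limma-voom 2. Leaving out 1 library gave 3 to 6 enzymes higher and 3 to 5 lower, with both at 3 without CTRL replicate 4, and 0 to 5 higher and 2 to 6 lower other genes of the pathway, with 0 higher without CTRL replicate 5 and 5 without CTRL replicate 1. Gyg1, Ldha, Pfkfb3 and Stbd1 each lost the threshold without at least 5 of the libraries in turn.

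Some estimates changed sign: Pfkp (0.025 with the upper quartile, -0.31 to 0.41 with 1 library left out, highest without CTRL replicate 3, 0.17 without CTRL replicate 3 and ASO replicate 4), Ldhb (-0.83 without ASO replicate 4 to 0.42 without CTRL replicate 1), Pygb (-1.03 without ASO replicate 4 to 0.033 without CTRL replicate 3), Gpd1 (0.12 with only the distal segment, 0.45 with that segment fitted on its own), Gys1 (0.11 at its distal segment), Pkm (-0.18 at its upstream segment) and the distal over upstream ratio of Gpi1 (0.61 with 1000 bp between segments). None of these but the last passed a test, and the cause was not tested.

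With the replicate number as a block, 6 enzymes were higher and 5 lower, 1 other gene of the pathway was higher, and 663 and 1175 features were called. Deviations of same-numbered libraries correlated between -0.42 and 0.15, and 1 library correlated best with its own number. A pairing with a small effect, or an effect on few genes, could give such values. Whether the numbers pair the libraries therefore stays unknown.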
